A study of Mus musculus with 34 samples.

Results

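The end of mouse chromosome 12 beyond the immunoglobulin heavy chain locus Igh was described as seen from an Igh bait by circular chromosome conformation capture (4C), which counts reads on the HindIII fragments that were ligated to the bait. The stretch was chosen by position: it is made up of the 21 windows of 200 kb that start at position 117200001 of chromosome 12 (build mm9) or beyond, out of 12836 windows in the deposited tables. The last window ends with the chromosome, at 121257530. Measured values entered the choice through the bait, whose window, chr12:114400001-114600000, was selected on having the most reads of chromosome 12 in every library. The 21 windows lie 2.8 to 6.8 Mb from it and were set against the 21 windows at the same distances on the side of lower coordinates (107.6 to 111.8 Mb), called mirror windows here.

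Reads came from lines of 2 plasmacytomas, tumors of antibody-secreting cells, with 2 libraries each. TEPC1165 is labelled with the strain Balb/c and no genotype. PCT4961 is labelled Balb/c with the genotype AID-/- BclXL, so it lacks the enzyme that starts class switching and somatic hypermutation, and BclXL is an inhibitor of cell death. The labels state neither how BclXL was introduced nor whether a tumor's 2 libraries had cultures of their own, so the spread between libraries may be technical. Each tumor is 1 line and stands only for itself.

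Igh lies near the distal end of the chromosome, with its constant genes towards lower coordinates and its variable (VH) genes towards the telomere. On the side of higher coordinates the bait is therefore followed first by the VH genes and then by ordinary genes that have no antibody function. Contact in 4C is known to drop with distance along a chromosome.

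In the RefSeq gene order of GRCm38.p6 the last VH gene is followed by Zfp386, Vipr2, Wdr60, Esyt2, Ncapg2, Ptprn2, Rapgef5, Cdca7l, Dnah11, Sp4, Sp8, Abcb5, Itgb8, Macc1 and Tmem196. Vipr2 encodes a receptor for vasoactive intestinal peptide. Ptprn2 encodes phogrin, a phosphatase-like membrane protein of secretory granules, and is the longest gene of the list, with 792473 bp in that build, more than 3 windows. Rapgef5, an activator of Rap GTPases, has 243212 bp, more than 1 window, while Vipr2 with 71218 bp and Sp4 with 69755 bp are each shorter than a window. Sp4 and its neighbour Sp8 encode zinc finger transcription factors of the Sp family, and Itgb8 encodes an integrin subunit. Gene positions in mm9 were not used here, so no window is assigned to a gene: the windows nearest the VH genes hold the start of this order and the last windows its end.

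The 4C libraries can count only what HindIII cuts, at AAGCTT, a palindrome that reads the same on both strands. Of the 18 RefSeq promoters of these 15 genes (300 bases each, 250 before and 50 after the start), 2 hold the letters AAGCTT, against 7.45% of all 32851 promoters in the table. Those of Vipr2, Ptprn2, Rapgef5 and Sp4 do not, which says nothing about sites elsewhere in these genes. The 2 that do are printed because a fragment end lies inside the promoter there, in the reference strain. They are 1 promoter of Sp8, chr12:118846079-118846378 of GRCm38.p6, plus strand, and that of Tmem196, chr12:119945877-119946176 of GRCm38.p6, plus strand, with the HindIII site in capitals. These positions do not carry over to the mm9 windows, and the reads are given per window, not per promoter.
Sp8: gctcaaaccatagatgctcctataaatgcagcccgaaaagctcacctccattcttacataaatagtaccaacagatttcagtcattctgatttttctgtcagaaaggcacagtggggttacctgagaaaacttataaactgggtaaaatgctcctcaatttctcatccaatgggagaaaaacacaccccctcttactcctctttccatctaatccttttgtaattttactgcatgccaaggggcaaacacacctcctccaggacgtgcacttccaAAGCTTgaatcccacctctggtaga
Tmem196: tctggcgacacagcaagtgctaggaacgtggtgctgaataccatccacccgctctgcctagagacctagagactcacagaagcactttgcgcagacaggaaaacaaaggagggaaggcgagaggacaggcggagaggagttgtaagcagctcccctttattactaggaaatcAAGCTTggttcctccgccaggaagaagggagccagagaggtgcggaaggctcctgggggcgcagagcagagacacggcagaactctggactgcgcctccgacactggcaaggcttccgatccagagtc

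The libraries held 1668589 to 2178689 reads, of which 1048003 to 1735257 lay outside the bait region (the 11 windows within 1 Mb of the bait window). Where levels are given as RPM, the usual scaling of reads to depth, the base is the reads outside the bait region. Libraries of different tumors with the same replicate number resembled each other beyond their tumors: over the 10911 windows of the autosomes other than 12 and 15, the Pearson correlation of log2(reads + 1) was 0.645 and 0.635 for the same-numbered pairs, but 0.251 for the replicates of PCT4961 and 0.116 for those of TEPC1165. Reads of one library may therefore appear in the other of its number. As a gauge, the 2 Mb around Mycn, which end at 14000000 on chromosome 12, had few TEPC1165 reads: they came to 2.34% of the PCT4961 reads for the libraries numbered 1 and to 1.51% for those numbered 2. Over the 21 telomeric windows the same percentages were 11.5% and 3.81%. By window they ran from 1.75% to 85.7% for the libraries numbered 1 (median 7.94%) and from 1.05% to 56.5% for those numbered 2 (median 3.88%), and 4 and 2 of the 21 windows were at or below the Mycn percentage. How many telomeric TEPC1165 reads come from the other library was not tested beyond this. The Mycn percentage counts every TEPC1165 read around Mycn as coming from the other library, which was not tested. After that percentage was taken away window by window, 2600 and 762 of the 3240 and 1256 TEPC1165 reads were left.

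The chromosome end beyond Igh held far more reads in PCT4961 than in TEPC1165, while the fragments with a read differed less. Of its 1366 HindIII fragments, PCT4961 had a read on 246 and 244, and TEPC1165 on 187 and 179. The 21 windows held 28269 and 32926 reads in PCT4961 and 3240 and 1256 in TEPC1165. As a share of reads (bait region left out) this was 2.697% and 2.41% in PCT4961 and 0.187% and 0.0800% in TEPC1165. The means were 2.55% ± 0.204 and 0.133% ± 0.0755 (SD, n = 2 each), a ratio of 19.1. Both PCT4961 values lay above both TEPC1165 values, and the gap of the means was many times the spread between replicates. Of the TEPC1165 replicate 1 reads, 47.7% lay in 1 window, and without that library the ratio was 31.9. Without TEPC1165 replicate 2 it was 13.7, and with all reads of a library as the base it was 13.2. No telomeric window was at 0 reads in any library. Over the 21 windows the reads ran from 7 to 4816 and from 32 to 6197 in PCT4961, with medians of 1124 and 626, and from 1 to 1546 and from 3 to 274 in TEPC1165, with medians of 34 and 36. As a share of the chromosome 12 reads outside the bait region the ratio was 4.33.

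Towards the telomere the PCT4961 level had a high stretch within the VH side, a trough, and then a step up at the start of the telomeric windows. The highest of the VH-side windows outside the bait region, chr12:115800001-116000000, held 31450 and 48020 reads in PCT4961 and 904 and 1204 in TEPC1165. The last window before the telomeric ones, which starts at 117000001, held 909 and 601 reads in PCT4961 and 194 and 274 in TEPC1165. The first telomeric window, which starts at 117200001, held 3209 and 5156 reads in PCT4961 and 257 and 274 in TEPC1165. PCT4961 was thus higher beyond the boundary than before it in both libraries, while the TEPC1165 libraries stayed at a like level. From the last 5 windows before this boundary to the first 5 beyond it, reads went from 1964 to 14612 and from 3042 to 18740 in PCT4961, ratios of 7.44 and 6.16. In TEPC1165 they went from 785 to 651 and from 1218 to 603, ratios of 0.829 and 0.495. In those last 5 windows before the boundary 38.9% and 43.2% of the 285 fragments had a read in PCT4961 and 33.7% and 39.3% in TEPC1165. In the first 5 beyond it, with 310 fragments, the shares were 38.06% and 32.9% in PCT4961 and 26.8% and 26.5% in TEPC1165. Reads per detected fragment went from 17.7 to 124 and from 24.7 to 184 in PCT4961, and from 8.18 to 7.84 and from 10.9 to 7.35 in TEPC1165. The share of fragments with a read was thus no higher beyond the boundary in any library, and close to equal in PCT4961 replicate 1, while the reads on each were higher in PCT4961 alone.

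**Figure D1:**
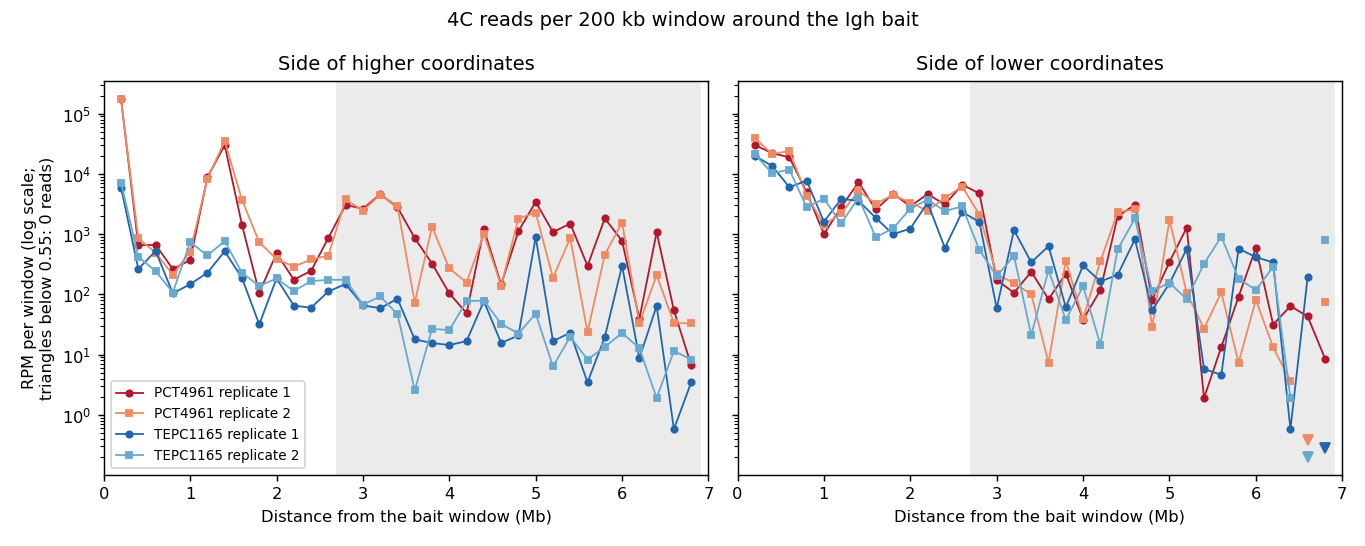
RPM per 200 kb window (log axis) against distance from the bait window (Mb), on the side of higher coordinates (left) and of lower coordinates (right), with 1 line per library and triangles for windows with 0 reads. Grey marks the 21 telomeric windows and the 21 mirror windows. In the first 4 telomeric windows both PCT4961 libraries lie between 2455 and 4595 RPM and both TEPC1165 libraries between 47.1 and 175.

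The 4 windows nearest the VH genes, up to 118000000, were high in both PCT4961 libraries; these 4, and the stretches named after them, were set apart after their values were seen. They took 48.5% and 56.6% of the telomeric reads of PCT4961, on 111 and 97 detected fragments, and 620 and 599 reads in TEPC1165, on 76 and 80. The highest of them, and the highest telomeric window of both PCT4961 libraries, was chr12:117600001-117800000. It held 4816 and 6197 reads in PCT4961 and 102 and 145 in TEPC1165, which is 4595 and 4535 RPM against 58.8 and 92.4. The PCT4961 libraries lay close together there and far above both TEPC1165 libraries. PCT4961 had reads on 37 and 29 of its 66 fragments, and TEPC1165 on 20 and 19. Its neighbour chr12:117400001-117600000 held 2763 and 3355 reads against 114 and 106, and chr12:117800001-118000000 held 2924 and 3932 against 147 and 74.

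Beyond 118000000 the reads were patchy, and the replicates differed more. The 4 windows from 118000001 to 118800000 together held 1400 and 2485 reads in PCT4961, against 13712 and 18640 in the 4 before. In chr12:118000001-118200000 the PCT4961 libraries held 900 and 100 reads, and in chr12:118200001-118400000 they held 340 and 1802, so the replicates differed in opposite directions in adjacent windows. The 13 windows from 118800001 to the end held 13157 and 11801 reads in PCT4961 and 2508 and 450 in TEPC1165. Besides the window described next, 3 windows there held over 1000 reads in both PCT4961 libraries. In chr12:118800001-119000000 these were 1270 and 1380 reads, against 134 and 124 in TEPC1165. The window that starts at 119200001 held 1166 and 2475 reads, against 36 and 35. In chr12:119800001-120000000 the values were 1568 and 1176 reads, against 40 and 31. The other windows from 118800001 to the end had at least 1 PCT4961 library below 1000 reads.

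Window chr12:119400001-119600000, the highest of these 13 in both PCT4961 libraries, held 3603 and 3119 reads in PCT4961 and 1546 and 75 in TEPC1165. It was the highest telomeric window of TEPC1165 replicate 1, while that of TEPC1165 replicate 2 was the first one, which starts at 117200001. In TEPC1165 both libraries detected 12 of its 83 fragments, so the 1546 and 75 reads differ in depth on the same number of fragments. Window chr12:120400001-120600000 showed the same spread in TEPC1165, with 522 and 36 reads on 5 and 4 fragments. Both libraries of both tumors were low in chr12:120600001-120800000, with 41 and 45 reads in PCT4961 and 15 and 20 in TEPC1165, and in chr12:121000001-121200000, with 57 and 46 against 1 and 18. The last, partial window, chr12:121200001-121257530, has 17 fragments and held 7 and 45 reads in PCT4961 and 6 and 13 in TEPC1165, so its libraries overlap.

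In bands of 1 Mb from the start of the stretch the PCT4961 level did not decline evenly. It was 2766 ± 32.3 RPM per window in the first band, 473 ± 150 in the next, 1259 ± 319 in the one after it and 605 ± 209 in the last full band (SD, n = 2 each). TEPC1165 had 75.9 ± 1.26, 38.02 ± 14.3, 106 ± 120 and 45.7 ± 46.9 RPM per window in the same bands. The ratio of PCT4961 to TEPC1165 was 36.4 in the first band and 12.4, 11.9 and 13.3 in the others. The last pair of TEPC1165 values carries an SD larger than the mean, and the windows just described, with 1546 and 522 reads in replicate 1, make up most of them. In an alternative added after the data were seen, each library was left out in turn. Without TEPC1165 replicate 1 the ratios were 36.002, 9.82, 60.3 and 48.5 from the first band to the last, and without TEPC1165 replicate 2 they were 36.9, 17.0, 6.59 and 7.68. The ratio was above 1 in all 4 bands either way, but which band had the highest ratio depended on the library.

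Tested window by window over the genome with edgeR's quasi-likelihood test, 1 of the 21 windows was called higher in PCT4961 and 0 lower, and 0.348% of the 3449 tested windows of the genome were called higher. All 21 passed the filter of at least 10 reads in 2 libraries, and in each at least 1 TEPC1165 library had 10 reads or more. In the called window, chr12:117600001-117800000, PCT4961 was higher by 6.10 on the log2 scale (SE 1.24), with an edgeR adjusted p of 0.0188. The edgeR test gives no standard error. SE here is the size of the log2 fold change divided by the square root of the F statistic of the test. Of the others the smallest adjusted values were 0.231 for chr12:117800001-118000000 (log2 fold change 5.64, SE 1.53) and 0.262 for the first window (4.66, SE 1.30), with edgeR. The window chr12:119400001-119600000 did not pass the threshold (log2 fold change 2.76, SE 1.43, adjusted p 0.795 with edgeR), and neither did the last window (log2 fold change 2.02, SE 3.22, adjusted p 0.807 with edgeR). Among other settings, the call was lost without either PCT4961 library, with DESeq2 as the test, with a filter of 50 reads and with detected fragments in place of reads. Without TEPC1165 replicate 1 the count was 5 and without TEPC1165 replicate 2 it was 4, and all 4 of the first windows were in both sets.

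All 21 log2 fold changes were above 0, from 1.54 to 6.33 with a median of 4.16. The median over all tested windows was −1.01, and 43.5% of them were above 0. The telomeric median was 5.17 above that of all tested windows. On the rest of chromosome 12 the median was 0.99, with 218 of 334 tested windows above 0. All 21 stayed above 0 with total reads, DESeq2 size factors or factors from chromosomes other than 12 and 15. Without PCT4961 replicate 2 it was 19 of 20 tested windows, and with detected fragments in place of reads 15 of 18, with a median of 0.20. Unadjusted edgeR p-values were under 0.05 for 8 of the 21 windows, against 1.68% of all tested windows. The standard errors derived from the F statistic ran from 1.24 to 4.31, so most single windows carry little precision. Both PCT4961 libraries lay above both TEPC1165 libraries in RPM in 19 of the 21 windows, against 16.2% of the tested windows of the genome and 36.5% of the 334 other tested windows of chromosome 12. The 2 windows with overlap were chr12:118600001-118800000 and the last one. The tumor contrast was not particular to the telomeric windows. Every tested window between the bait region and the telomeric ones also had a log2 fold change above 0, from 1.39 to 5.91. Among them chr12:115600001-115800000 (4.86, adjusted p 0.00404 with edgeR) and chr12:115800001-116000000 (5.91, adjusted p 7.6e-08 with edgeR) were called higher in PCT4961.

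**Figure D2:**
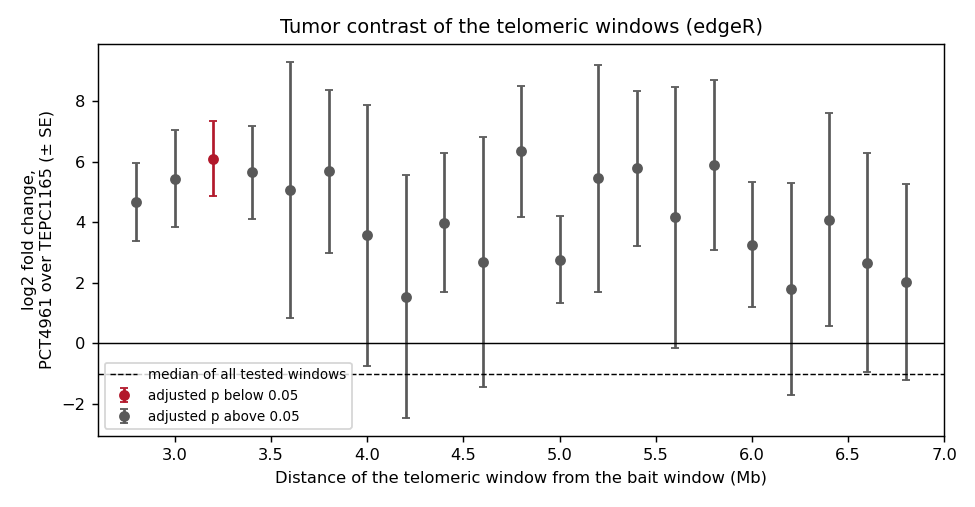
Log2 fold change of reads in PCT4961 over TEPC1165 (edgeR) for the 21 telomeric windows by distance from the bait window (Mb). Bars are standard errors derived from the fold change and the F statistic of the test. The dashed line is the median of all 3449 tested windows, −1.01. All points lie above 0, and the window with an adjusted p of 0.0188 is in red.

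The 2 sides of the bait differed in opposite directions in the 2 tumors. On the side of the mirror windows the GRCm38.p6 order runs from Bcl11b over Yy1 to the imprinted genes Dlk1, Meg3, Rtl1 and Dio3; no window was assigned to a gene there either. The mirror windows held 13968 and 14245 reads in PCT4961 and 13284 and 10976 in TEPC1165, that is 1.19% ± 0.205 and 0.732% ± 0.0469 of the reads (SD, n = 2 each). The telomeric windows had 2.02 and 2.31 times the reads of the mirror windows in PCT4961, but 0.244 and 0.114 times in TEPC1165. On the log2 scale this is 1.11 ± 0.136 and −2.58 ± 0.772 (SD, n = 2 each). By the mean RPM of its 2 libraries, the highest mirror window of PCT4961 was chr12:111600001-111800000, which held 4970 and 2871 reads in PCT4961 and 2752 and 857 in TEPC1165. That of TEPC1165 by the same mean was chr12:109800001-110000000, which held 3220 and 3556 reads in PCT4961 and 1423 and 2863 in TEPC1165. Library by library the first was the highest in both libraries numbered 1 and the second in both numbered 2, so the order followed the number and not the tumor. Both mirror windows held more reads in TEPC1165 than its highest telomeric window did in the same library, except the second in replicate 1. Pair by pair at equal distance, the telomeric window held more reads in 15 and 16 of 21 pairs in PCT4961 and in 5 and 3 of 21 in TEPC1165. Of the 20 mirror windows tested, 0 were called with edgeR, 9 had a log2 fold change above 0 and the median was −0.36. These sums and ratios are given as a description, with no test.

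Detected fragments told the sides apart less than reads did, and in the same direction in both tumors. Of the 1366 fragments of the telomeric windows PCT4961 had a read on 246 and 244, 18.01% and 17.9%, and TEPC1165 on 187 and 179, 13.7% and 13.1%. The 95% Wilson intervals were 16.1% to 20.1% and 15.9% to 19.98% in PCT4961. In TEPC1165 they were 11.97% to 15.6% and 11.4% to 14.997%. These intervals take fragments as independent draws, so they do not gauge the spread between tumors. The mirror windows have 1175 fragments, of which PCT4961 had a read on 13.3% and 12.9%, and TEPC1165 on 10.98% and 10.3%. The telomeric share was thus 1.36 and 1.38 times the mirror share in PCT4961 and 1.25 and 1.27 times in TEPC1165. Detected fragments were not corrected for reads that same-numbered libraries may share. The depth on a detected fragment differed far more. TEPC1165 had 17.3 and 7.02 reads per detected telomeric fragment, but 103 and 90.7 per detected mirror fragment, while PCT4961 had 115 and 135 against 89.5 and 93.7. The labels mention no molecular identifiers, so copies of 1 ligation cannot be told from several ligations, and intervals cover counting error only.

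**Figure D3:**
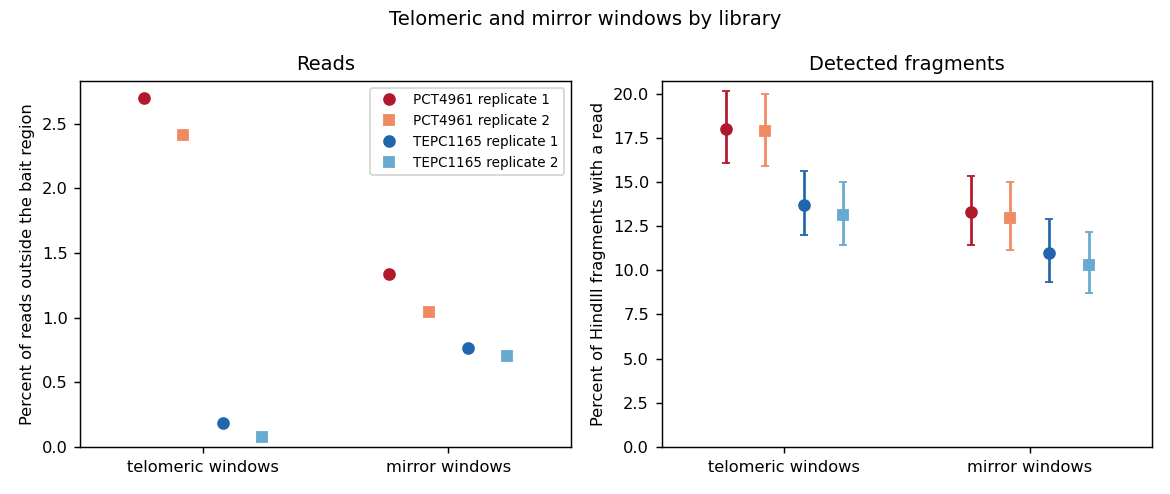
Left, percent of reads (bait region left out) in the 21 telomeric and the 21 mirror windows, 1 point per library. Right, percent of the HindIII fragments of these windows with at least 1 read, with 95% Wilson intervals. In TEPC1165 the telomeric windows hold 0.187% and 0.0800% of the reads, while 13.7% and 13.1% of their fragments are detected.

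Set beside the last 21 windows of the 18 other autosomes, the end of chromosome 12 was the highest in PCT4961 and in TEPC1165 lay within their range by reads, at a rank that depended on the summary. It had 1284 and 1147 RPM per window in PCT4961, above all 18 others in both libraries; these had medians of 48.1 and 54.2 and reached 141 and 151, on chromosome 15. In TEPC1165 it had 88.9 and 38.1 RPM per window, against medians of 51.5 and 40.4, and lay above 15 and 8 of the 18 ends. By its median window, at 19.6 and 22.9 RPM, it lay above 17 of the 18 ends in both TEPC1165 libraries, with chromosome 15 higher, and 11 of the 18 ends had a median window at 0. The highest end of TEPC1165 was that of chromosome 15, the chromosome of Myc, with 871 and 1041 RPM per window. By fragments with a read the end of chromosome 12 was above all 18 others in all 4 libraries. Detection was not corrected for reads that same-numbered libraries may share, so how far these add to the TEPC1165 values was not tested. Its 13.7% and 13.1% in TEPC1165 compare with medians of 1.11% and 1.33% and with 11.4% and 10.9% for the highest of the others. The bait lies on chromosome 12, and the other ends do not. The mirror windows, also on chromosome 12, had 635 and 496 RPM per window in PCT4961 and 365 and 333 in TEPC1165. By RPM and by detected fragments they too were above every other end in PCT4961, and below that of chromosome 15 in TEPC1165. A high level beside other chromosomes was thus not particular to this stretch.

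**Figure D4:**
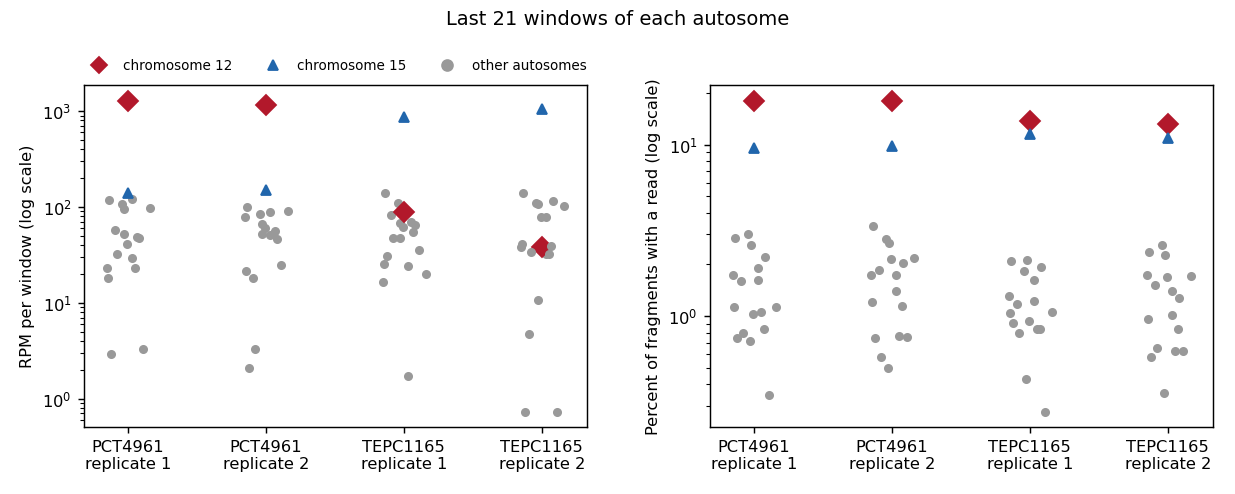
The last 21 windows of each autosome in the 4 libraries, as RPM per window (left, log axis) and as percent of HindIII fragments with at least 1 read (right, log axis). The end of chromosome 12 (diamonds) is above the 18 others in both PCT4961 libraries, and by detected fragments in all 4 libraries.

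The windows most like the called telomeric window lay at the other end of the same chromosome. Over the 4 libraries, by Euclidean distance of log2(RPM + 1) among the 3428 tested windows outside the stretch, the nearest was chr12:8600001-8800000 (distance 0.757), with 6295 and 5645 reads in PCT4961 and 91 and 223 in TEPC1165. The next was chr12:11200001-11400000 (1.70), with 11050 and 7231 reads against 167 and 74. After it came the chromosome 12 window that ends at 12200000 (2.07), with 4307 and 4025 against 77 and 37. This window lies within the 2 Mb around Mycn that served as the gauge for shared reads. Likeness here rests on 4 values per window and describes only their levels. Among the telomeric windows themselves, the Pearson correlation of log2(reads + 1) over the 21 windows was 0.78 for the PCT4961 replicates, 0.45 for the TEPC1165 replicates, and 0.71 and 0.67 for the libraries of the same number. For the pairs that differ in tumor and number it was 0.30 (PCT4961 replicate 1 with TEPC1165 replicate 2) and 0.78 (PCT4961 replicate 2 with TEPC1165 replicate 1). All of these share fragment numbers and distance from the bait.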

How the data were processed

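The 4C libraries (2 per tumor) were analysed; the other 30 of the 34 samples were not used here. Per the file headers, the authors deposited counts per 200 kb window of mm9: reads on HindIII fragments, fragments with at least 1 read, and all fragments. For the 4C reads the aligner, the bait position and any step that removed copies are not stated in the labels or headers. The members, lists and tests were chosen with earlier results of these data known. Windows with at least 10 reads in 2 libraries, without the 11 of the bait region, were fitted genome-wide in edgeR 4.0.16 (R 4.3.3; quasi-likelihood, TMM, prior count 2, tumor as the only term, two-sided, Benjamini-Hochberg over 3449 windows, threshold 0.05). The script was tested on simulated data without the likeness between same-numbered libraries, so that check does not bear on how sure the call is. Sums, shares and detection were described with Python 3.11.15, with 95% Wilson intervals. Named in full were called windows, the highest telomeric window of each library, the highest mirror window of each tumor, the windows at the edges and the 3 outside windows nearest in level to the highest one; others were named after their values were seen. The gene and promoter tables are of GRCm38.p6 and gave names, order and sequences only; of 16 listed genes 15 lay beyond the VH genes in it. Alternatives were other scalings, filters, prior counts, bases and bins, DESeq2 1.42.0, a replicate block, detected fragments, reads corrected for sharing, and each library left out.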

Additional observations from a re-analysis of the deposited data

Results flagged for a closer look

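The ratio of telomeric to mirror reads pointed in opposite directions in the tumors: its log2 value was 1.02 and 1.21 in the PCT4961 libraries and −2.04 and −3.13 in the TEPC1165 libraries. Both libraries of one tumor moved one way and both of the other the opposite way, and this difference between the tumors was not tested. Beside it, the ratio of detected fragments was 0.66 and 0.68 in PCT4961 and 0.54 and 0.56 in TEPC1165 on the log2 scale. It had one sign in all 4 libraries, with no correction for reads shared between same-numbered libraries.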

How the results depend on the processing

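The count of telomeric windows called, 1, was 0 with DESeq2 as the test (4 at unadjusted p under 0.05), 0 with a filter of 50 reads, 0 with detected fragments and 2 with reads corrected for sharing. With a replicate block it was 0; same-numbered libraries resemble each other, but no label ties the numbers to a pairing. Leaving out a library gave 0 to 5, with the remaining library of that tumor taken to vary as the other tumor does. The log2 ratio of shares, 4.26, was 2.11 on the base of chromosome 12. The log2 telomeric to mirror ratio of PCT4961, 1.11, was 2.77 for the median window, 1.35 without the highest windows, 0.67 for detected fragments and 0.90 per HindIII fragment. That of TEPC1165, −2.58, reversed to 0.55 for detected fragments. The log2 ratio to the median of the other chromosome ends, 4.57 in PCT4961, was 10.7 for the median window, whose level at the other ends is close to 0, and 3.54 for detected fragments. That of TEPC1165, 0.35, was 3.46 for detected fragments, and without a library it ran from −0.084 to 0.79; the median window gave no ratio because its median over the other ends was 0. In the called window, the first, the last and the one with 1546 reads in TEPC1165 replicate 1 the log2 fold change kept its sign in each alternative that tested the window. The last window was tested in only 11 of them, and not with the filter of 50 reads or with detected fragments. TEPC1165 reads, at 1 to 1546 per window, set the limit on depth.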
